A study of Mus musculus with 6 samples.

Results

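Ribosome biogenesis genes and other Myc targets were followed in CD8+ T cells from mouse spleen by RNA-seq, in 3 knockout (KO) libraries from Cd4creGlut10fl/fl mice and 3 control libraries from Cd4cre mice. The set held 31 genes, chosen by name from the 35458 Ensembl gene identifiers of the deposited files: Myc itself, nucleolar processing factors, RNA polymerase I subunits and Myc-driven biosynthesis genes. Both groups carried Cd4cre, which expresses Cre recombinase from the Cd4 promoter in developing T cells, CD8+ cells included. In the KO mice Cre acts on floxed alleles of Glut10, the protein name of the hexose transporter gene Slc2a10. Age and sex are not given in the labels, nor is it stated whether each library came from a separate mouse, so the p-values cover variation among these libraries, part or all of which may be technical. Lymphoma is named in the series title, but the labels are silent on whether these mice had tumours.

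Myc is a transcription factor that binds DNA together with its partner Max, often at the E-box CACGTG, and it drives the genes a cell needs to grow. In T cells it is induced after antigen recognition and supports the growth that comes before division. Ribosome production is one of its main outputs: RNA polymerase I transcribes the precursor of ribosomal RNA in the nucleolus, small nucleolar ribonucleoproteins (snoRNPs) modify it, and processing factors cut it and fold it into the small and large subunits.

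The promoters of the genes are shown first, as Myc binds DNA. RefSeq promoter windows (GRCm38.p6, 250 bases before to 50 bases after a gene start) were matched for 24 of the 31 genes, with no window matched for Myc, Npm1, Fbl, Rrs1, Bop1, Rrp12 and Srm. The E-box CACGTG, which reads the same on both strands, lay in the windows of 5 of these 24 genes. Each is printed 5′ to 3′ on the strand of its gene, 30 bases long, with the E-box in capitals.
Nop2: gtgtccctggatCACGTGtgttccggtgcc
Pes1: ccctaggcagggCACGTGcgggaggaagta
Wdr43: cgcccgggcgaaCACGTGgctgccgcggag
Utp20: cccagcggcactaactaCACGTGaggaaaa
Mybbp1a: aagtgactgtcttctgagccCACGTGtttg
The stretches lie at chr6:125131811-125131840 (+ strand) for Nop2, chr11:3963965-3963994 (+) for Pes1, chr17:71616220-71616249 (+) for Wdr43, chr10:88826765-88826794 (- strand) for Utp20 and chr11:72441347-72441376 (+) for Mybbp1a. The E-box begins 60 bases before the gene start in Nop2 and at base 3, 18, 38 and 41 of the transcribed region in Pes1, Wdr43, Utp20 and Mybbp1a. It was found in 18.5% of the 27 windows of these genes, in 22.5% of 222 windows of the other pathway genes described below, and in 7.15% of all 32851 windows. A match of these letters is a description of the sequence, and binding was not measured. The 5 genes with the E-box had a median log2 difference between KO and control cells of -0.15, and the 19 genes with a window and no E-box 0.086, on the scale explained below. The 5 genes ran from -0.325 to 0.019, within the range of the 19, -0.683 to 0.776. The 5 lay between 0.095 and 0.449 with KO 2 as the only KO library. They lay between -0.895 and -0.338 against control 1 alone. A difference between the genes with and without the E-box was not tested.

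The libraries differed in ways that bear on every value below. The FPKM values (fragments relative to exon length and to library depth) imply 3420290, 14683400 and 3004540 fragments in KO 1, 2 and 3 and 11840600, 15020100 and 15036300 in control 1, 2 and 3. Genes at 1 FPKM or more numbered 18934, 12200 and 19268 in KO 1, 2 and 3, against 13713, 12559 and 12850 in control 1, 2 and 3, so the shallow KO 1 and KO 3 listed the most. Slc2a10 measured 0 FPKM in the 3 KO libraries and 0.0946, 0.0373 and 0.0373 FPKM in control 1, 2 and 3, with floors of 3 reads of 0.0572 to 0.28 and 0.0559 to 0.071 FPKM, so its loss was not detectable at this depth. Cd8a, which marks CD8+ T cells, measured 101, 252 and 90.7 FPKM in KO 1, 2 and 3, against 191, 30.3 and 31.8 in control 1, 2 and 3. The 14 neutrophil markers summed to 275, 75.8 and 716 FPKM in KO 1, 2 and 3, against 449, 16963 and 29769.6 in control 1, 2 and 3, and 0 of them were at 0 in any library. The 10 erythroid markers summed to 10.6, 9.58 and 50.5 FPKM in KO 1, 2 and 3, against 13.7, 2231 and 1021 in control 1, 2 and 3. The 10 B cell markers summed to 484, 342 and 377 FPKM in KO 1, 2 and 3, against 250.02, 72.0 and 80.8 in control 1, 2 and 3, with Fcer2a at 0 in control 2. Of the 6 B cell markers tested, 6 had higher estimates in KO cells (median log2 difference 1.55, and 0.50 against control 1 alone). For 4 of them the groups did not overlap. Of 12 T cell markers, 12 had higher estimates (median 1.30, and 0.19 against control 1 alone), 5 without overlap. Of 13 neutrophil markers tested, 13 had lower estimates (median -3.83, and -0.51 against control 1 alone), 4 without overlap. Over all genes tested, 6.7% were higher and 9.44% lower without overlap. The 13 markers of dividing cells, such as Mki67 and Top2a, summed to 247, 590.3 and 182 FPKM in KO 1, 2 and 3, against 350, 327 and 363 in control 1, 2 and 3. The part of these differences in the results below was not tested, and in bulk samples fewer cells of a type and less RNA per cell cannot be told apart.

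The KO and control libraries overlapped for 30 of the 31 ribosome biogenesis and Myc target genes. Of the 31 genes, 16 had higher and 15 lower estimates in KO cells, and their median log2 difference was 0.0034 on the log2(FPKM + 1) scale, against 0.10 over 13956 genes tested, 56.9% of which had higher estimates. The differences of single genes ran from -0.68 for Tfrc to 0.78 for Wdr12. In the limma fit over all genes, 0 of the 31 passed at an adjusted p of 0.05, where 0% of all genes did, and the smallest limma adjusted p among them was 0.417, that of Wdr12. At an unadjusted p under 0.05 there was 1 of the 31, again Wdr12, which was higher in KO, against 11.8% of all genes (5.33% higher and 6.46% lower). For 1 of the 31, Wdr12, every KO library was above every control, against 6.7% of all genes higher and 9.44% lower with no overlap.

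**Figure D1:**
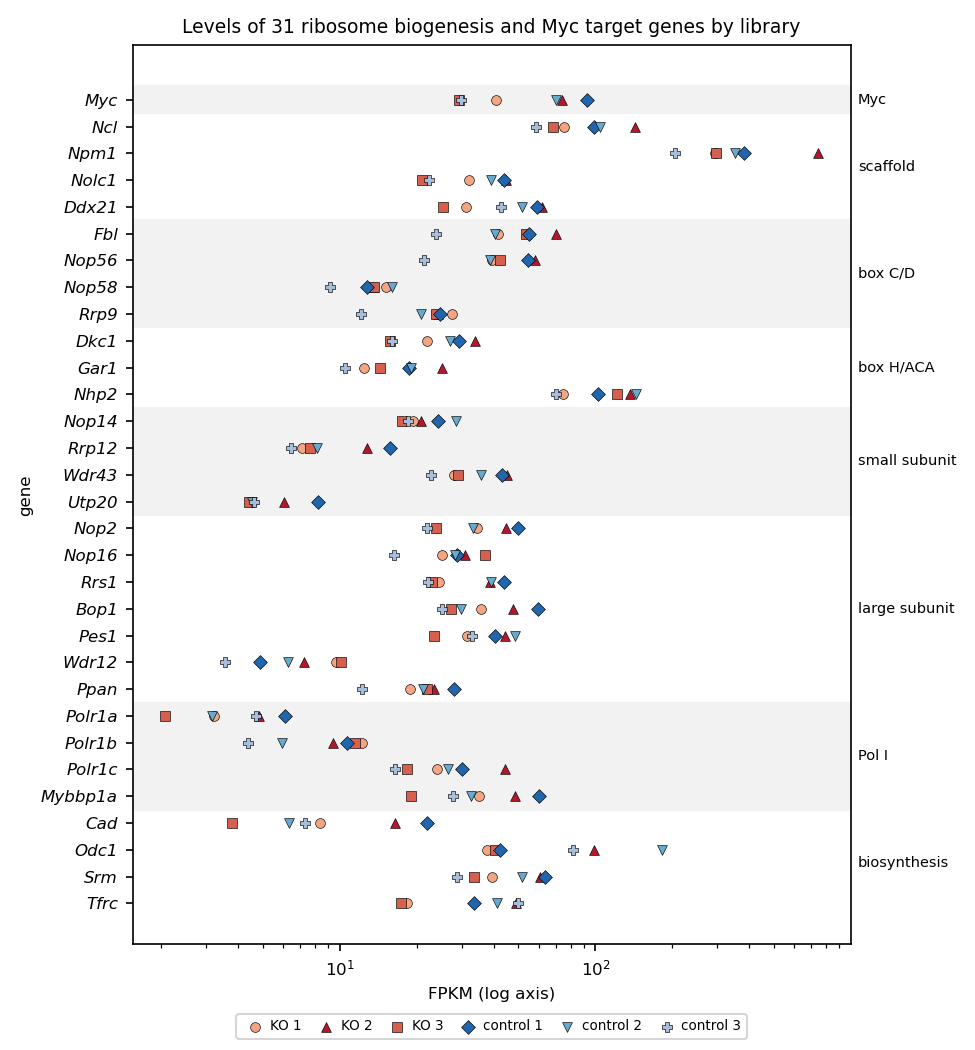
FPKM of each gene (log axis) in 3 KO libraries (reds) and 3 control libraries (blues), 1 symbol per library, with genes grouped by role. For most genes KO 2 and control 1 lie to the right and control 3 or KO 3 to the left, so the colours are mixed. Wdr12 is the gene whose 3 KO symbols lie to the right of its 3 control symbols.

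For most of the genes, the range within each genotype was wider than the difference between the genotype means. KO 2 was the highest KO library for 26 of the 31 genes (83.9%, against 36.1% of all genes tested), and control 1 was the highest control for 22 (71%, against 51.4%). Control 3 was the lowest control for 26 (83.9%, against 35.5%). Over all 6 libraries, 11 of the genes were highest in control 1 and 10 in KO 2, while 19 were lowest in control 3 and 11 in KO 3. The fold from lowest to highest library was between 1.63 and 5.78, with a median of 2.38. The log2 difference between genotypes was smaller than the range within the KO libraries and also smaller than that within the controls for 25 genes (80.6%, against 55.5% of all genes tested). A range over single libraries tends to exceed a difference of group means even without a genotype effect. The count is therefore to be read against the share of all genes. The mean log2(FPKM + 1) over the 31 genes was 4.68, 5.24 and 4.53 in KO 1, 2 and 3 (mean 4.82 ± 0.38) and 5.15, 4.94 and 4.37 in control 1, 2 and 3 (mean 4.82 ± 0.40; SD, n = 3 each). KO 2 stood highest of the 6 libraries and control 3 lowest. KO 2 also had the highest sum of the dividing cell markers and of the T cell markers, 2777 FPKM against 460 to 1896 in the other libraries. Control 3, where the 31 genes were lowest, had the second highest sum of the dividing cell markers and the highest of the neutrophil markers. Control 2, with a neutrophil sum of 16963 FPKM, had a mean over the 31 genes of 4.94. KO 1 and KO 3, with neutrophil sums of 275 and 716 FPKM, had means of 4.68 and 4.53. The part of these cell types in the values was not tested.

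**Figure D2:**
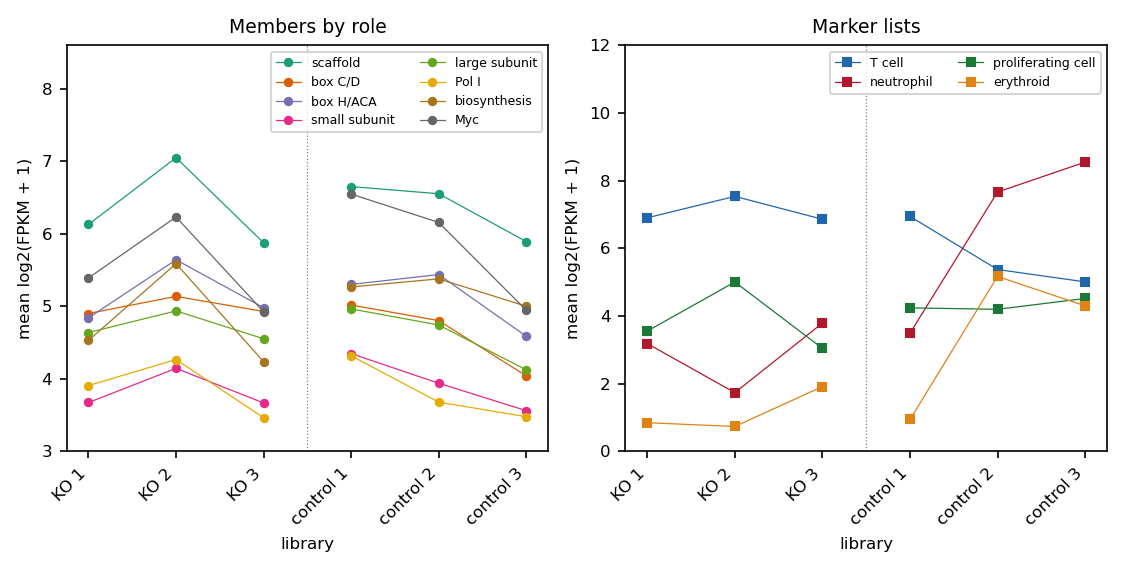
Mean log2(FPKM + 1) per library of the 31 genes by role (left) and of 4 marker lists (right), with KO libraries left of control libraries. Thin lines link the values of a list within a genotype and carry no order. Each role is higher in KO 2 than in KO 1 and KO 3, and neutrophil markers reach 7.67 and 8.55 in control 2 and 3.

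Myc (ENSMUSG00000022346) measured 41.0, 74.2 and 29.4 FPKM in KO 1, 2 and 3, against 92.7, 70.4 and 29.8 FPKM in control 1, 2 and 3. Its highest value was in control 1 and its lowest in KO 3, next to control 3, and the groups overlapped. The mean was 48.2 ± 23.2 FPKM in KO cells and 64.3 ± 31.9 in control cells (SD, n = 3 each), which gave a log2 difference of -0.37 (SE 0.51, limma adjusted p = 0.732). The difference was -1.03 against control 1 alone and 0.35 with KO 2 as the only KO library.

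Among nucleolar scaffold and chaperone proteins, nucleophosmin and nucleolin were highest in KO 2 and lowest in control 3, and the groups overlapped. Npm1, the histone and ribosome chaperone nucleophosmin, was the most abundant of the 31 genes per length in each library, at 294, 743 and 295 FPKM in KO 1, 2 and 3 and 381, 351 and 204 FPKM in control 1, 2 and 3. KO 2 exceeded every control, while KO 1 and KO 3 lay between control 3 and control 2. Npm1 has processed pseudogenes in the mouse genome, and reads shared with them were not measured. Ncl, nucleolin, which binds nascent ribosomal RNA, measured 75.4, 143 and 68.3 FPKM in KO 1, 2 and 3, against 98.4, 105 and 58.6 in control 1, 2 and 3. The log2 differences were 0.41 (SE 0.46) for Npm1 and 0.097 (SE 0.37) for Ncl. Nolc1, a chaperone that links snoRNPs with RNA polymerase I, measured 32.1, 44.9 and 20.97 FPKM in KO 1, 2 and 3 and 43.9, 39.0 and 22.4 in control 1, 2 and 3. KO 2 and control 1 were nearly level for Nolc1, as were KO 3 and control 3. Ddx21, an RNA helicase of the nucleolus, was low in KO 1 and KO 3 alone: it measured 31.2, 61.8 and 25.4 FPKM in KO 1, 2 and 3, against 59.1, 51.5 and 42.7 in control 1, 2 and 3. Its log2 difference was -0.46 (SE 0.36, limma adjusted p = 0.530), and 0.28 with KO 2 as the only KO library.

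The box C/D snoRNP proteins had higher estimates in KO cells for 4 of 4 genes, with a median log2 difference of 0.40. They belong to particles many of which serve 2′-O-methylation of ribosomal RNA. The median was 0.075 without control 3, and -0.0043 against control 1 alone. Fbl, the methyltransferase fibrillarin, measured 41.7, 69.9 and 53.8 FPKM in KO 1, 2 and 3, against 55.2, 40.5 and 23.7 in control 1, 2 and 3. Nop56, a core protein of the same particles, measured 39.4, 58.2 and 42.5 FPKM in KO 1, 2 and 3, against 54.6, 38.6 and 21.3 in control 1, 2 and 3. For both genes control 1 lay above KO 1 and KO 3 and control 3 lay below every KO library. The log2 differences were 0.51 (SE 0.36, limma adjusted p = 0.494) for Fbl and 0.36 (SE 0.37, limma adjusted p = 0.628) for Nop56. Rrp9, a protein of the U3 snoRNP, had a narrow range in KO cells, 27.5, 24.2 and 23.8 FPKM in KO 1, 2 and 3, against 24.7, 20.8 and 12.1 in control 1, 2 and 3. Its KO libraries differed by less than its controls, and control 1 stood among them. Nop58, the partner of Nop56, measured 15.2, 13.5 and 13.6 FPKM in KO 1, 2 and 3, against 12.7, 16.0 and 9.17 in control 1, 2 and 3. The log2 differences were 0.43 (SE 0.29) for Rrp9 and 0.18 (SE 0.26) for Nop58.

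The box H/ACA snoRNP proteins, which serve pseudouridylation of ribosomal RNA and telomerase, had a median log2 difference of 0.085, which was -0.20 without KO 2 and -0.18 without control 3. Dkc1, the pseudouridine synthase dyskerin, measured 21.99, 33.9 and 15.7 FPKM in KO 1, 2 and 3, against 29.2, 27.1 and 16.0 in control 1, 2 and 3. Gar1, a subunit of the same particles, measured 12.5, 25.0 and 14.4 FPKM in KO 1, 2 and 3, against 18.6, 19.0 and 10.5 in control 1, 2 and 3. Nhp2, their RNA-binding subunit, measured 75.0, 136 and 122 FPKM in KO 1, 2 and 3, against 103, 145 and 70.0 in control 1, 2 and 3. The order of libraries was not the same for the 3 subunits: KO 3 was the lowest library for Dkc1 and the third highest for Nhp2.

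Small subunit processing factors had lower estimates in KO cells for 3 of 4 genes, with a median log2 difference of -0.12, which was 0.15 without control 1. Nop14, a component of the small subunit processome, varied least of the 31 genes from lowest to highest library, at 19.4, 20.8 and 17.6 FPKM in KO 1, 2 and 3, against 24.2, 28.6 and 18.5 in control 1, 2 and 3. Only control 3 of the controls fell within the range of the KO libraries. Its log2 difference was -0.27 (SE 0.23, limma adjusted p = 0.555), and it was the gene of the 31 that stayed lower with KO 2 as the only KO library, at -0.17. Wdr43, an early-acting processome protein, measured 28.0, 45.1 and 29.0 FPKM in KO 1, 2 and 3, against 43.2, 35.7 and 22.7 in control 1, 2 and 3. Rrp12, known from yeast for its part in export of ribosomal subunits, measured 7.11, 12.8 and 7.63 FPKM in KO 1, 2 and 3, against 15.7, 8.17 and 6.44 in control 1, 2 and 3. Utp20, a large scaffold of the processome, measured 4.53, 6.05 and 4.41 FPKM in KO 1, 2 and 3, against 8.21, 4.54 and 4.63 in control 1, 2 and 3. For Rrp12 and Utp20 control 1 and KO 2 stood above the other 4 libraries, which lay close together.

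Among large subunit processing factors, Wdr12 was the gene whose KO and control libraries did not overlap. Wdr12, which forms the PeBoW complex with Pes1 and Bop1, measured 9.68, 7.21 and 10.1 FPKM in KO 1, 2 and 3, against 4.86, 6.28 and 3.54 in control 1, 2 and 3. The mean was 8.99 ± 1.55 FPKM in KO cells and 4.89 ± 1.37 in control cells (SD, n = 3 each), which gave a log2 difference of 0.78 (SE 0.29, limma adjusted p = 0.417). The lowest KO library was KO 2 and the highest control was control 2. The highest values were in KO 1 and KO 3, the libraries with the fewest implied fragments. With KO 2 as the only KO library, the log2 difference of Wdr12 was 0.505. Its head-to-head neighbour Carf, which shares 0.51% of the exon bases of Wdr12, measured 2.11, 0.763 and 2.58 FPKM in KO 1, 2 and 3, against 0.719, 0.462 and 0.553 in control 1, 2 and 3. The kit is not stated to keep strand, so reads in the shared bases cannot be told apart. The partners of Wdr12 had overlapping groups. Bop1 measured 35.8, 47.5 and 27.2 FPKM in KO 1, 2 and 3, against 59.5, 29.7 and 25.2 in control 1, 2 and 3. Pes1 measured 31.4, 44.2 and 23.3 FPKM in KO 1, 2 and 3, against 40.6, 48.5 and 33.0 in control 1, 2 and 3. The log2 differences were 0.016 (SE 0.38) for Bop1 and -0.33 (SE 0.29) for Pes1.

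The remaining large subunit factors had overlapping groups. Nop2, a methyltransferase of the large subunit RNA whose promoter E-box is printed above, measured 34.3, 44.9 and 23.8 FPKM in KO 1, 2 and 3, against 49.8, 33.3 and 21.9 in control 1, 2 and 3. Rrs1, which helps to incorporate the 5S particle, measured 24.4, 38.6 and 22.9 FPKM in KO 1, 2 and 3, against 43.8, 39.0 and 22.1 in control 1, 2 and 3. Both were highest in control 1 and lowest in control 3. Nop16, a nucleolar protein induced by Myc, measured 25.2, 30.9 and 37.0 FPKM in KO 1, 2 and 3, against 28.8, 28.3 and 16.3 in control 1, 2 and 3. Ppan, another early large subunit factor, measured 18.8, 23.3 and 21.9 FPKM in KO 1, 2 and 3, against 27.9, 21.1 and 12.2 in control 1, 2 and 3. Control 3 was the lowest library for both, and their log2 differences were 0.36 (SE 0.29) for Nop16 and 0.13 (SE 0.32) for Ppan.

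**Figure D3:**
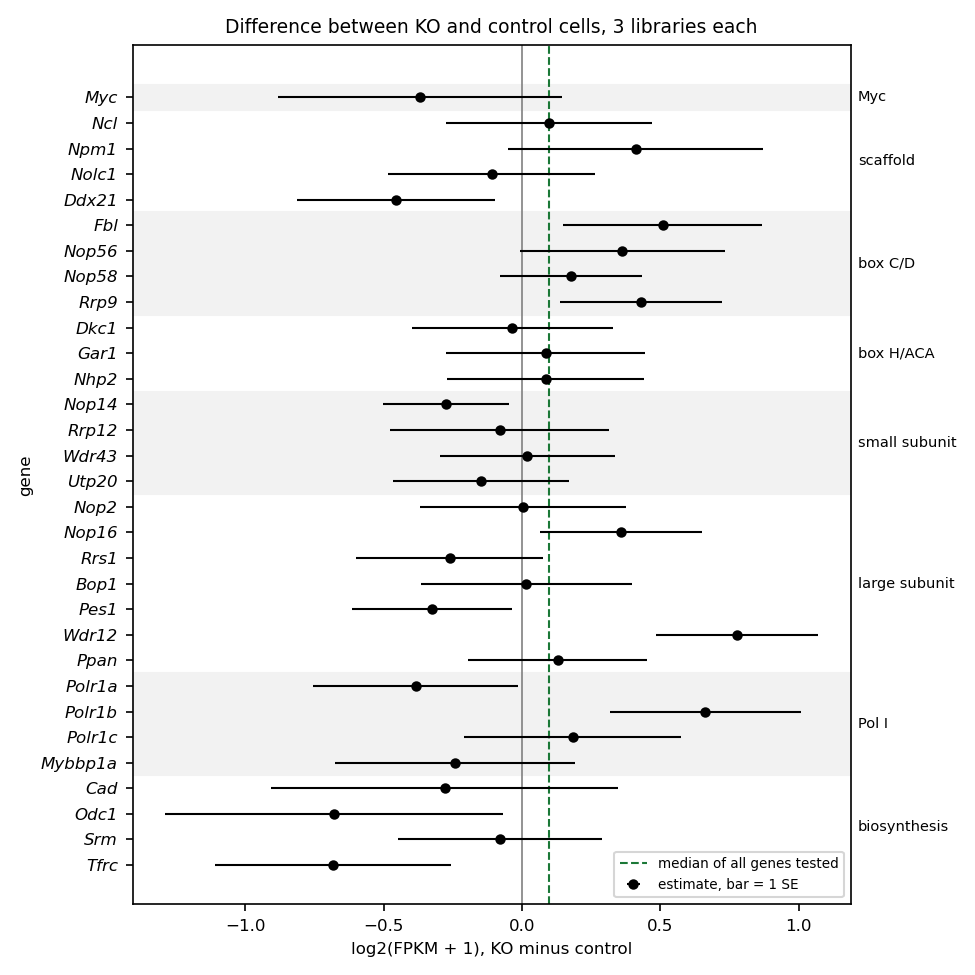
Difference of mean log2(FPKM + 1), KO minus control, for each of the 31 genes (points) with 1 SE of the limma fit (bars), grouped by role. The dashed line marks the median of all genes tested, 0.10. Estimates lie on both sides of 0, from -0.68 for Tfrc to 0.78 for Wdr12.

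RNA polymerase I subunits differed among themselves. Polr1b, the second largest subunit, measured 12.2, 9.41 and 11.47 FPKM in KO 1, 2 and 3, against 10.7, 5.94 and 4.37 in control 1, 2 and 3. Polr1a, the largest subunit, measured 3.23, 4.84 and 2.07 FPKM in KO 1, 2 and 3, against 6.11, 3.17 and 4.69 in control 1, 2 and 3. Control 1 was the control nearest to the KO libraries for Polr1b and the farthest from them for Polr1a. The log2 differences were 0.66 (SE 0.34, limma adjusted p = 0.421) for Polr1b and -0.38 (SE 0.37, limma adjusted p = 0.607) for Polr1a. Against control 1 alone, they were 0.040 for Polr1b and -0.75 for Polr1a. Polr1c, which RNA polymerase I shares with RNA polymerase III, measured 24.0, 44.4 and 18.3 FPKM in KO 1, 2 and 3, against 30.1, 26.6 and 16.5 in control 1, 2 and 3. Mybbp1a, a nucleolar protein that restrains RNA polymerase I transcription, measured 35.1, 48.6 and 19.0 FPKM in KO 1, 2 and 3, against 60.4, 32.7 and 27.7 in control 1, 2 and 3. Polr1c peaked in KO 2 and Mybbp1a in control 1. Polr1a in KO 3 rested on the fewest implied reads in that group of genes, 74, where counting error alone is 11.6%.

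The biosynthesis genes had lower estimates in KO cells for 4 of 4, with a median log2 difference of -0.48. It was -0.93 without KO 2, -0.17 without KO 3 and 0.33 with KO 2 as the only KO library. Cad, the enzyme that starts pyrimidine synthesis, varied most of the 31 genes between libraries, at 8.36, 16.5 and 3.78 FPKM in KO 1, 2 and 3, against 21.9, 6.35 and 7.33 in control 1, 2 and 3. Control 1 and KO 2 stood apart from the other 4 libraries. Srm, spermidine synthase, had the same top pair, at 39.5, 60.8 and 33.5 FPKM in KO 1, 2 and 3, against 63.8, 51.8 and 28.9 in control 1, 2 and 3. The log2 differences were -0.28 (SE 0.63) for Cad and -0.081 (SE 0.37) for Srm.

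Odc1 and Tfrc were the genes of the 31 that were higher in both control 2 and control 3 than in control 1. Odc1, the ornithine decarboxylase that starts polyamine synthesis, measured 37.7, 98.4 and 40.7 FPKM in KO 1, 2 and 3, against 42.2, 182 and 82.1 in control 1, 2 and 3. Control 2, control 3 and KO 2 stood above the other 3 libraries. Its log2 difference was -0.68 (SE 0.61, limma adjusted p = 0.584), and 0.33 against control 1 alone. Tfrc, the transferrin receptor through which dividing and erythroid cells take up iron, measured 18.4, 49.0 and 17.4 FPKM in KO 1, 2 and 3, against 33.4, 41.2 and 49.9 in control 1, 2 and 3. KO 1 and KO 3 were lowest, while KO 2 lay among the controls. Its log2 difference was -0.68 (SE 0.43, limma adjusted p = 0.455). With KO 2 as the only KO library it was 0.253. Without KO 2 it was -1.15, and Tfrc was then the 1 gene of the 31 that passed (limma adjusted p = 0.0453). In its other fits with 1 library left out, the limma adjusted p was 0.361 to 0.806. The fit without KO 2 called 13% of all genes, 12.1% higher and 0.96% lower in KO. The 13 markers of dividing cells summed to 247, 590.3 and 182 FPKM in KO 1, 2 and 3. In control 1, 2 and 3 they summed to 350, 327 and 363. The 10 erythroid markers summed to 10.6, 9.58 and 50.5 FPKM in KO 1, 2 and 3. In control 1, 2 and 3 their sums were 13.7, 2231 and 1021. Neutrophil markers also had their highest sums in control 2 and 3, at 16963 and 29769.6 FPKM. The part of dividing, erythroid or neutrophil cells in the values of Odc1 and Tfrc was not tested.

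With libraries left out, the median of the set changed sign. The median log2 difference of the 31 genes was -0.23 without KO 2 (all genes tested 0.071), with 8 genes higher. It was 0.16 without KO 3 (all genes tested 0.14). Without control 1, 0 of the 31 genes passed against 2.6% of all genes (1.05% higher and 1.55% lower). The median of the 31 genes was then 0.21 (all genes tested 0.19), and it was -0.26 without control 3 (all genes tested 0.046). Against control 1 alone, the control with the lowest neutrophil and erythroid sums, it was -0.35 (all genes tested -0.060), and with KO 2 as the only KO library it was 0.40 (all genes tested 0.012), with 30 of 31 genes higher. These last fits leave 1 library in a group, which is assumed to vary like those of the other group, so they are given without a test. Quantile normalization shifted the median of all genes tested to -0.12 and that of the 31 genes to -0.12.

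**Figure D4:**
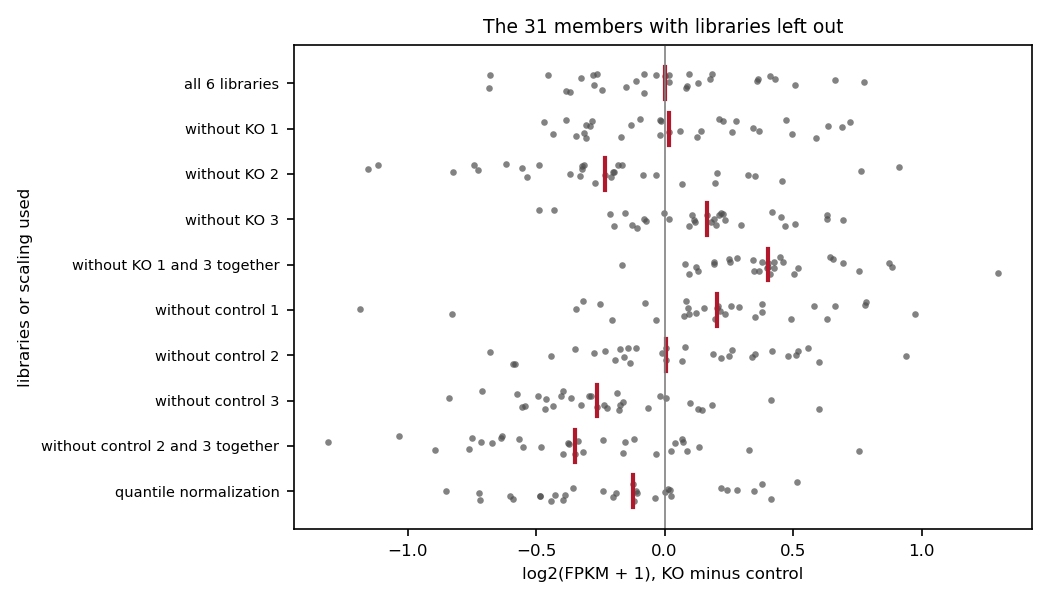
Difference of log2(FPKM + 1), KO minus control, for the 31 genes (points) and their median (red bar) with all libraries, with libraries left out and after quantile normalization. The median is 0.0034 with all 6 libraries, 0.40 without KO 1 and 3 and -0.35 without control 2 and 3.

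Other genes of the pathway, 209 in the files of which 207 were tested, likewise had 0 genes past the threshold in either direction. Of those tested, 117 had higher and 90 lower estimates, and the median log2 difference was 0.044, which was -0.073 without KO 2 and -0.11 without control 3. The lists were the following, with the 2 genes of highest mean level named in each. Of 45 other small subunit processome and pre-40S factors, 26 had higher and 19 lower estimates (median 0.037). Imp3, a partner of the U3 snoRNA, measured 49.99, 92.1 and 99.1 FPKM in KO 1, 2 and 3, against 67.6, 82.5 and 52.5 in control 1, 2 and 3. Ngdn, another nucleolar processome protein, measured 60.04, 81.0 and 85.0 FPKM in KO 1, 2 and 3, against 64.5, 67.7 and 48.9 in control 1, 2 and 3. Both had control 3 or KO 1 at the bottom, with overlapping groups. Of 50 other large subunit and pre-60S factors, 29 had higher and 21 lower estimates (median 0.044). Nsa2 measured 92.2, 149 and 106 FPKM in KO 1, 2 and 3, against 86.1, 114 and 77.7 in control 1, 2 and 3, and Rrp1 77.0, 80.8 and 62.7 FPKM in KO 1, 2 and 3, against 88.1, 61.1 and 44.0 in control 1, 2 and 3.

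Of 11 other snoRNP proteins and assembly factors, 8 had higher and 3 lower estimates (median 0.046). Nop10, the fourth core protein of the box H/ACA particle, measured 69.1, 113 and 72.9 FPKM in KO 1, 2 and 3, against 70.9, 106 and 51.3 in control 1, 2 and 3. Snu13, which binds the box C/D motif, measured 28.6, 65.4 and 37.5 FPKM in KO 1, 2 and 3, against 43.8, 58.5 and 30.5 in control 1, 2 and 3. KO 2 was the highest library for both. The 18 other RNA polymerase I subunits and factors had higher estimates for 15 and lower for 3, with a median of 0.38, and 0 passed. Ubtf, the factor that opens ribosomal DNA for RNA polymerase I, measured 61.3, 47.1 and 51.5 FPKM in KO 1, 2 and 3, against 55.9, 39.7 and 41.7 in control 1, 2 and 3, and Polr2f, a subunit shared by the nuclear polymerases, 65.2, 78.0 and 108 FPKM in KO 1, 2 and 3, against 69.1, 79.3 and 39.9 in control 1, 2 and 3. The median of that list was 0.16 without control 3, 0.021 against control 1 alone and 0.32 with KO 2 as the only KO library. The RNA exosome trims ribosomal RNA ends, and its list also held cofactors and the separate exonuclease Xrn2. Of the 14 genes of that list, 8 had higher and 6 lower estimates (median 0.060). Exosc3 measured 38.6, 60.5 and 39.97 FPKM in KO 1, 2 and 3, against 49.2, 48.4 and 27.8 in control 1, 2 and 3, and the 5′ exonuclease Xrn2 63.8, 66.99 and 38.2 FPKM in KO 1, 2 and 3, against 79.9, 38.8 and 42.7 in control 1, 2 and 3.

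The Myc network, of which 12 genes were tested, had 5 higher and 7 lower estimates (median -0.077). Max, the obligate partner of Myc, had overlapping groups, at 41.8, 55.9 and 37.5 FPKM in KO 1, 2 and 3, against 53.8, 42.7 and 41.2 in control 1, 2 and 3. Mlx, the partner of the glucose-sensing factors of this network, had every KO library below every control, at 14.5, 16.0 and 7.33 FPKM in KO 1, 2 and 3, against 20.0, 29.9 and 27.4 in control 1, 2 and 3, a log2 difference of -1.02 (SE 0.34, limma adjusted p = 0.417). Purine and pyrimidine synthesis had 10 higher and 4 lower estimates (median 0.16, with -0.023 without KO 2 and -0.012 without control 3). Paics measured 54.2, 90.1 and 47.7 FPKM in KO 1, 2 and 3, against 60.6, 59.3 and 43.7 in control 1, 2 and 3, and Impdh2, the enzyme that commits to guanine nucleotides, 43.5, 68.3 and 34.2 FPKM in KO 1, 2 and 3, against 47.6, 38.9 and 26.6 in control 1, 2 and 3.

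Polyamine metabolism, the pathway of Odc1 and Srm, had 4 higher and 7 lower estimates (median -0.27). With 1 library left out that median lay between -0.13, without control 2, and -0.22, without control 1. Oaz1, the antizyme that sends ornithine decarboxylase to degradation, measured 234, 261 and 321 FPKM in KO 1, 2 and 3, against 262, 199.9 and 185 in control 1, 2 and 3. Eif5a, the translation factor that spermidine modifies, measured 219, 423 and 228 FPKM in KO 1, 2 and 3, against 387, 416 and 236 in control 1, 2 and 3. The groups overlapped for both. Of 24 other Myc targets tested, 11 had higher and 13 lower estimates (median -0.049). Eif4a1, the helicase of cap-dependent translation, measured 96.4, 150.3 and 96.1 FPKM in KO 1, 2 and 3, against 148, 212 and 141 in control 1, 2 and 3, and Ran, the GTPase of nuclear transport, 113, 206 and 146 FPKM in KO 1, 2 and 3, against 173, 226 and 131 in control 1, 2 and 3. Iron uptake and storage, the setting of Tfrc, had 1 higher and 7 lower estimates (median -0.84). The median was -0.41 without KO 2 and -1.54 with KO 2 as the only KO library. Fth1, the ferritin heavy chain, measured 3464, 1933 and 8642 FPKM in KO 1, 2 and 3, against 5609.5, 16383 and 11549.9 in control 1, 2 and 3, and Hmox1, which releases iron from haem, 705, 134 and 1304 FPKM in KO 1, 2 and 3, against 958, 2514 and 1457 in control 1, 2 and 3. Macrophage markers, which mark cells that recycle iron, summed to 253, 73.9 and 540.1 FPKM in KO 1, 2 and 3, against 359, 383 and 255 in control 1, 2 and 3. KO 2 was the lowest library for Fth1, for Hmox1 and for these markers. It was also lowest for the neutrophil and erythroid markers, at 75.8 and 9.58 FPKM. Fth1 and Hmox1 were highest in control 2, while the macrophage markers were highest in KO 3. The part of these cell types in the values was not tested.

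**Figure D5:**
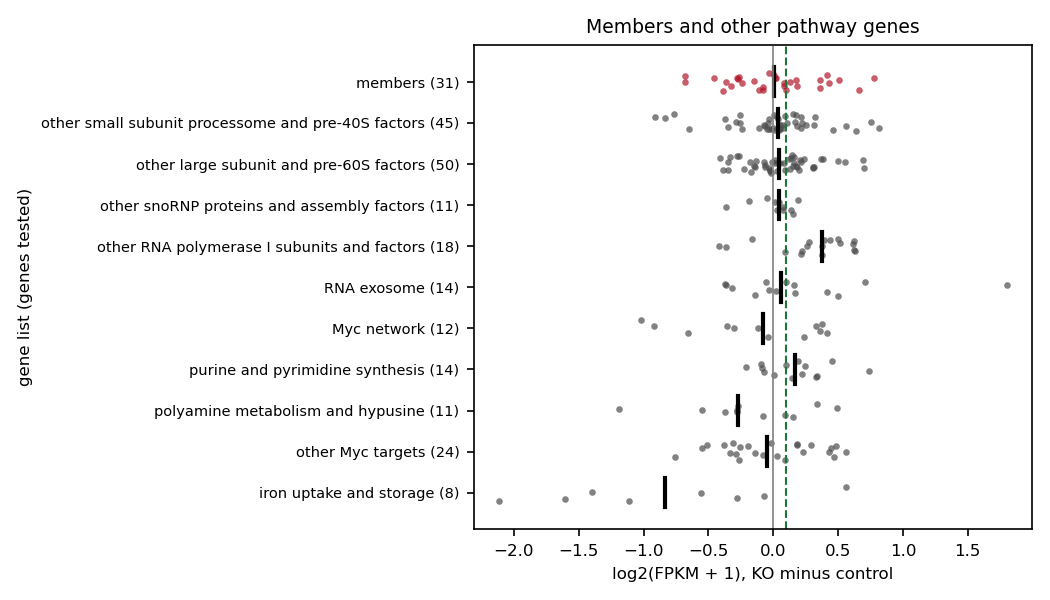
Difference of log2(FPKM + 1), KO minus control, for the 31 genes (red points) and for the genes tested in each other pathway list (grey points), with list medians (black bars). The dashed line is the median of all genes tested, 0.10. With all 6 libraries, list medians run from -0.84 for iron uptake and storage (-0.41 without KO 2) to 0.38 for other RNA polymerase I subunits and factors (0.16 without control 3).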

How the data were processed

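The authors deposited 1 value per gene and library for 35458 Ensembl identifiers, taken here to be FPKM because of how the values scale with gene length. HTSeq 0.6.0, HISAT2 2 and Bowtie2 2.2.3 are named in the submitters' processing notes, as is mm8 for the genome build, without saying what each was used for. The strand setting and annotation are not given in the sources used here. Symbols, gene types and summed exon lengths came from GENCODE M21. Multiplied by exon length, low values were close to multiples of a fixed unit in each library (92.1% to 93.4% of values under 200 implied reads lay within 0.02 of a whole read), which gave the implied fragments; sums over genes exceeded these totals by 8.25% to 12.3%. Each of the 31 genes had at least 73 implied reads in each library; floors and counting errors cover counting error only.

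The fit covered the 13956 genes that reached 1 FPKM in 3 or more libraries. Values of log2(FPKM + 1) entered limma 3.58.1 (in R 4.3.3; trended variance), genotype was the sole covariate, and p-values were adjusted over all genes by the Benjamini-Hochberg method. Fold changes on this scale understate changes of low genes. All 31 genes passed the filter. The pathway and marker lists held 212 and 72 entries, of which 206 and 71 matched by symbol and 3 pathway entries by an older symbol; the others are not analysed here. The members and lists were chosen with earlier results of these data known. From each pathway list the 2 genes with the highest mean FPKM are named. An exact permutation test of 3 against 3 libraries cannot go below 0.1, so none was used. The fitting code was run on simulated data in which libraries of a group shared the same expected levels. The real libraries differ within groups, so that run does not show what the fit can detect here. Tables and plots were made with Python 3.11.15, pandas 2.3.3, numpy 2.4.6 and matplotlib 3.10.9. Alternatives were another pseudocount, other filters, quantile normalization, protein-coding genes only, a replicate block, limma-voom on implied reads and fits with libraries left out.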

Additional observations from a re-analysis of the deposited data

How the results depend on the processing

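Under a pseudocount of 0.1, no filter, a minimum of 5 FPKM, quantile normalization, protein-coding genes only, the replicate block and limma-voom on implied reads, 0 genes passed in all and 0 of the 31, as with all libraries (unadjusted limma p under 0.05 for 1646 genes, and for 1413 by limma-voom). With 1 library left out, 0 to 1821 genes passed in all and 0 to 1 of the 31: 1821 passed without KO 2 (1687 higher in KO), 363 without control 1 (146 higher) and 0 without each of the others. The median log2 difference of the 31 genes changed sign over the alternatives. It ran from -0.35 against control 1 alone (all genes tested -0.060) to 0.40 with KO 2 as the only KO library (all genes tested 0.012). Between libraries of a group, the median log2(FPKM + 1) of the 31 genes had an SD of 0.46. That SD is a spread of levels and does not measure the spread of the difference. Same-numbered KO and control libraries deviated from their group means with correlations of 0.112, 0.0202 and 0.0175, and KO 3 correlated best with control 2 (0.139), so the numbers were not taken to pair the libraries. The replicate block called 0 genes, with a median of 0.003 for the 31.

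The log2 differences (KO minus control) of some of the 31 genes changed sign. Without KO 1 and 3 together they were Myc 0.348, Nolc1 0.4, Ddx21 0.283, Dkc1 0.521, Rrp12 0.401, Utp20 0.095, Rrs1 0.194, Pes1 0.131, Polr1a 0.08, Mybbp1a 0.346, Cad 0.643, Odc1 0.193, Srm 0.402 and Tfrc 0.253. Without control 2 and 3 together they were Ncl -0.12, Fbl -0.034, Nop56 -0.24, Gar1 -0.163, Wdr43 -0.37, Nop2 -0.568, Bop1 -0.714, Ppan -0.377, Polr1c -0.152 and Odc1 0.329. After quantile normalization they were Gar1 -0.111, Wdr43 -0.109, Nop2 -0.124, Bop1 -0.12 and Ppan -0.039, by limma-voom Dkc1 0.035, Rrp12 0.089 and Srm 0.009, and with protein-coding genes only Dkc1 0.021. With 1 library left out, the ranges of those that changed sign were Ncl -0.232 to 0.297, Npm1 -0.033 to 0.635, Nolc1 -0.396 to 0.165, Nop58 -0.018 to 0.351, Dkc1 -0.313 to 0.22, Gar1 -0.2 to 0.276, Nhp2 -0.178 to 0.344, Rrp12 -0.326 to 0.259, Wdr43 -0.236 to 0.214, Utp20 -0.275 to 0.091, Nop2 -0.285 to 0.289, Bop1 -0.224 to 0.38, Ppan -0.184 to 0.381, Polr1c -0.167 to 0.452, Mybbp1a -0.536 to 0.118, Cad -0.742 to 0.235 and Srm -0.404 to 0.154. None of these values passed the threshold, and the cause was not tested; Tfrc passed without KO 2, at -1.15. Wdr12, Rrp9, Nop16 and Polr1b stayed higher in KO under every alternative. Their ranges were 0.505 to 0.941, 0.026 to 0.632, 0.087 to 0.494 and 0.040 to 0.973. Nop14 stayed lower under every alternative, from -0.435 to -0.134. At the lowest implied count of each of the 31 genes counting error was 2.06% to 11.7%, and the SE of their log2 differences was 0.23 to 0.63.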

Other observations

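Of the other pathway lists, genes with an unadjusted limma p under 0.05 were 2 higher and 5 lower in KO cells among 207 tested, with none past the limma adjusted threshold (11.8% of all genes had an unadjusted p under 0.05). Those named here were chosen after their values were seen; Mlx, the fifth lower one, is given above. Exosc7, a ring subunit of the RNA exosome, measured 33.8, 10.1 and 42.3 FPKM in KO 1, 2 and 3, against 8.95, 6.69 and 4.18 FPKM in control 1, 2 and 3, a log2 difference of 1.80 (SE 0.56, limma adjusted p = 0.417). KO 2 stood close to control 1, while KO 1 and KO 3, the libraries with the fewest implied fragments, were far above. Zfp622, a pre-60S assembly factor, had a narrow range in KO cells, 57.8, 65.7 and 62.9 FPKM in KO 1, 2 and 3, against 51.0, 36.7 and 28.9 FPKM in control 1, 2 and 3.

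Among the lower ones, Smox, the spermine oxidase of polyamine breakdown, measured 9.24, 9.69 and 13.2 FPKM in KO 1, 2 and 3, against 18.7, 37.1 and 23.4 FPKM in control 1, 2 and 3, a log2 difference of -1.19 (SE 0.31, limma adjusted p = 0.417). The small subunit factors Mphosph10, Pno1 and Krr1 also had every KO library below every control. Mphosph10 measured 10.4, 14.9 and 12.3 FPKM in KO 1, 2 and 3, against 15.5, 35.2 and 25.8 in control 1, 2 and 3. Pno1 measured 10.4, 17.7 and 11.05 FPKM in KO 1, 2 and 3, against 18.1, 34.1 and 20.9 in control 1, 2 and 3. Krr1 measured 6.04, 7.57 and 5.42 FPKM in KO 1, 2 and 3, against 8.58, 12.8 and 13.5 in control 1, 2 and 3. For these 4 genes control 1 was the control nearest to the KO libraries, and the neutrophil markers summed to less in control 1 than in control 2 and 3. Their part in the values was not tested. The groups did not overlap for 8 genes higher and 8 lower of the 207, against 6.7% higher and 9.44% lower of all genes tested.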
